A study of Mus musculus with 8 samples.

Results

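Cytosolic ribosomal protein genes encode the proteins that, together with ribosomal RNA, build the large and the small subunit of the ribosome. They were taken here as the genes whose mm9 symbol begins with Rpl or Rps followed by a digit, together with Rplp0, Rplp1, Rplp2 and Rpsa, leaving out the Rps6k kinases, Rps19bp1 and symbols with -ps, which name processed copies. This rule found 83 of the 21915 genes in the count table, 50 of the large and 33 of the small subunit, and 80 of them (48 large, 32 small) had enough counts to be tested. Rpl3l, Rpl39l and Rps4y2 did not pass the filter, and no gene was analysed here under the symbols Rpl10l or Rps4l.

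The study asked what loss of the corepressor KAP1, encoded by Trim28, does to transcription. Poly(A) RNA was sequenced from Hepa 1-6, a mouse hepatoma cell line, in 2 control and 2 Kap1 KD samples collected 5 days after transduction. Kap1 KD cells carried an shRNA against KAP1, in a pLKO vector, and control cells were described as carrying the empty vector in the methods and a control shRNA in the labels, with puromycin selection in both groups. The labels speak of transfection in one field and of transduction in another. Sample titles give the number 2 to a sample of each group and no number to the others, which were taken as replicate 1, so that the pairs below rest partly on that reading. Total counts were 53605115 and 49915004 in control replicates 1 and 2, and 41566888 and 49578846 in Kap1 KD replicates 1 and 2. Nothing in the labels says that the samples came from separate cultures, so p-values measure the spread between these samples, which may be technical.

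Kap1 KD replicate 2 stood apart in clustered histone genes, in the 7SK RNA and in mitochondrial ribosomal RNA, but not in the sum of the mitochondrial genes. These come from a list taken as signs of RNA quality and divided after its values were seen. In CPM, which is gene counts relative to library size scaled by TMM factors, 49 loci of 7SK summed to 2.39, 1.91, 2.42 and 43 in control 1, control 2, Kap1 KD 1 and Kap1 KD 2. The 64 histone genes summed to 50.9, 56.7, 53.2 and 113 CPM. The mitochondrial ribosomal RNAs mt-Rnr1 and mt-Rnr2, chosen after their values were seen, stood at 75.5, 95.2, 90.1 and 282 CPM and at 73.4, 73.2, 70.7 and 200 CPM. In these the other 3 libraries lay closer to each other than to Kap1 KD replicate 2. All 18 mitochondrial genes summed to 36207, 27161, 36117 and 26020 CPM, led by mt-Co1, where Kap1 KD replicate 2 lay beside control replicate 2. On Kap1 KD 0 genes of the list were called by edgeR, which called 0% of all genes tested. Median log2 changes were 1.26 over 38 tested histone genes, 4.50 over 4 loci of 7SK and -0.09 over 16 mitochondrial genes. In replicate 2 against 1, 28 histone genes were called higher and 0 lower, 3 and 1 loci of 7SK, and 2 and 6 mitochondrial genes, against 9.08 and 17.4% of all genes tested. Many changes of ribosomal protein genes on Kap1 KD are also given below without this library, and the part of RNA quality in them was not tested.

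A ribosome holds a single copy of nearly every ribosomal protein, and cells make the proteins of both subunits in matched amounts. Their mRNAs are short, abundant and stable, and most begin with a cytidine followed by a run of pyrimidines, the terminal oligopyrimidine motif, through which growth signals set how well they are translated. Mammalian genomes also hold many processed copies of these genes, so a read can match several loci. Reads were aligned with a single location reported for each, and 24 of the 80 members tested had at least 50% of their 100-base windows in common with another annotated gene, against 11 with no such window. Counts of the former are therefore uncertain.

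Ribosomal protein mRNAs made up a large part of each library, and a larger part in the Kap1 KD samples. The 83 genes took 7.91% of all gene counts in the first control library, with a 95% binomial interval after Wilson of 7.9 to 7.91%, and 8.43% (8.43 to 8.44%) in the control library numbered 2. Among the knock-down libraries they took 8.6% (8.59 to 8.6%) in number 1 and 9.33% (9.32 to 9.33%) in number 2. Both Kap1 KD samples lay above both control samples, and in each group replicate 2 lay above replicate 1. The mean was 8.96% ± 0.517 (SD, n = 2) in Kap1 KD and 8.17% ± 0.374 (SD, n = 2) in control, a difference of 0.791 percentage points (exact permutation test on both sides, p = 0.33, the smallest value that 2 samples against 2 allow). Without Kap1 KD replicate 2 the difference was 0.426 points, and without control replicate 1 it was 0.527, while leaving out Kap1 KD replicate 1 or control replicate 2 gave 1.16 and 1.06. Intervals cover counting error only.

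Large and small subunit genes shared this order. Large subunit genes held 4.61 and 4.91% of counts in control replicates 1 and 2, and 5.01 and 5.38% in Kap1 KD replicates 1 and 2. Small subunit genes held 3.3 and 3.52% in the control replicates and 3.58 and 3.95% in the Kap1 KD replicates. For each subunit the lowest Kap1 KD sample was above the highest control sample. Mitochondrially encoded genes, a mark of library composition, held 3.76, 2.7, 3.7 and 2.46% of counts in control 1, control 2, Kap1 KD 1 and Kap1 KD 2, low in both samples numbered 2. Without them, the share of the members differed by 0.802 percentage points between Kap1 KD and control.

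**Figure D1:**
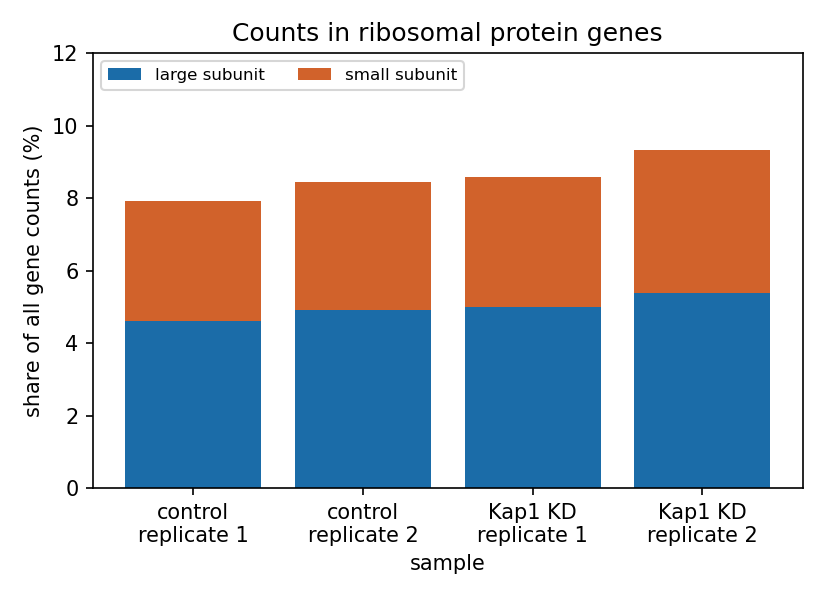
Share of all gene counts (%, vertical axis) held by large and small subunit genes, stacked, in each of the 4 samples (horizontal axis). Shares run from 7.91% in control replicate 1 to 9.33% in Kap1 KD replicate 2, and the subunits rise in the same order.

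Levels within the family spanned a wide range. As CPM divided by transcript length in kb, the median member stood at 1238, with 1065 over the 48 large and 1459 over the 32 small subunit genes. Rplp0, the scaffold of the stalk that recruits translation factors, had the highest mean level over the 4 samples, 3859 ± 859 CPM per kb (SD, n = 4 samples). It was followed by Rps2 at 3814 ± 1129, Rpl32 at 3766 ± 464 and Rplp2, a further stalk protein, at 3727 ± 616. These neighbours did not differ beyond their spread, and their order changed between samples. Rpl32 was first in control replicate 1 at 3209 and in Kap1 KD replicate 1 at 3741, Rplp0 in control replicate 2 at 3963 and Rps2 in Kap1 KD replicate 2 at 5434. The lowest levels among the members tested belonged to Rpl7l1, a relative of Rpl7 with a role in ribosome assembly, at 72.5 ± 3.84, Rpl24 at 98.4 ± 12.2, Rpl22l1 at 155 ± 32.5 and Rps20 at 189 ± 8.45. Annotated transcripts of Rpl24, Rps20 and Rpl7l1, the longest among the members tested, measured 4999, 3706 and 2606 bases, and their levels are computed with those lengths. The order depends on the length taken. As unions of exons Rplp0, Rps2, Rpl32 and Rplp2 measured 1567, 1308, 517 and 1052 bases, against 1358, 962, 517 and 421 used here. Rps15a measured 5992 bases as a union, against 640. An order by union lengths is not given here.

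Trim28 itself was measured at 456 and 575 CPM in control replicates 1 and 2 and at 106 and 78.9 CPM in Kap1 KD replicates 1 and 2. The groups did not overlap, with a log2 change of -2.48 (SE 0.25, edgeR quasi-likelihood test, unadjusted p = 0.00021, adjusted p = 1). The target was thus low in both samples labelled as knock-down, although its change did not pass this test across all genes. DESeq2 gave -2.47 with an adjusted p of 3.08e-11, which passed. It also passed in edgeR with any sample left out, at -2.71 without Kap1 KD replicate 1, -2.27 without Kap1 KD replicate 2, -2.64 without control replicate 1 and -2.28 without control replicate 2.

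On Kap1 KD, most ribosomal protein mRNAs had small positive estimates, and none passed the test in the fit with genotype alone. The median log2 change of the 80 members was 0.16, against -0.02 over all 14142 genes tested and 0.05 over the 2132 genes outside the family with a mean of at least 100 CPM. Of the members, 72 had a positive and 8 a negative estimate, or 66 and 14 on unscaled total counts, where the median was 0.12. Positive estimates were also held by 6665 of the 14142 genes tested and by 1316 of the 2132 abundant genes outside the family. The edgeR test at 1.5-fold and adjusted p under 0.05 called 0 members in either direction, as it called 0% of all genes tested. In the same fit 0 members had an unadjusted p under 0.05, against 185 of all genes. Adding replicate number as a block gave 59 members and 4627 genes under 0.05 with edgeR, and 49 and 2306 with DESeq2. DESeq2 with genotype alone called 3 genes, 2 higher and 1 lower, and 0 members. Without Kap1 KD replicate 2 the median of the members was 0.08, with 61 above and 19 below 0. It was 0.10 without control replicate 1, 0.24 without Kap1 KD replicate 1 and 0.25 without control replicate 2. Fits with a sample left out had genotype alone, so the replicate numbers were unequal between the groups.

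Changes were of like size in both pairs of samples with the same number. The median log2 change of CPM plus 0.1 was 0.14 in pair 1 and 0.18 in pair 2, where genes outside the family with at least 100 CPM had medians of 0.04 and 0.04. Of the 80 members, 66 were above 0 in both pairs, 4 were below 0 in both and 10 differed in sign. Taken singly, pairs 1 and 2 had 69 and 73 members above 0, against 1321 and 1246 of the 2132 abundant genes outside the family. Both Kap1 KD samples lay above both control samples for 19 members, or 23.8%, against 9.69% of all genes tested, and below them for 1 member, or 1.25%, against 10.6%. These shares describe the family, for which no test was made, since its genes are not independent of each other.

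The subunits did not separate. On Kap1 KD the median log2 change was 0.16 over 48 large and 0.16 over 32 small subunit genes, with medians of 0.13 and 0.14 in pair 1 and of 0.18 and 0.18 in pair 2. Large minus small came to 0.00 in the fit. Quartiles of the fitted change were 0.09 and 0.21 for the large and 0.12 and 0.20 for the small subunit, so the distributions lay over each other.

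**Figure D2:**
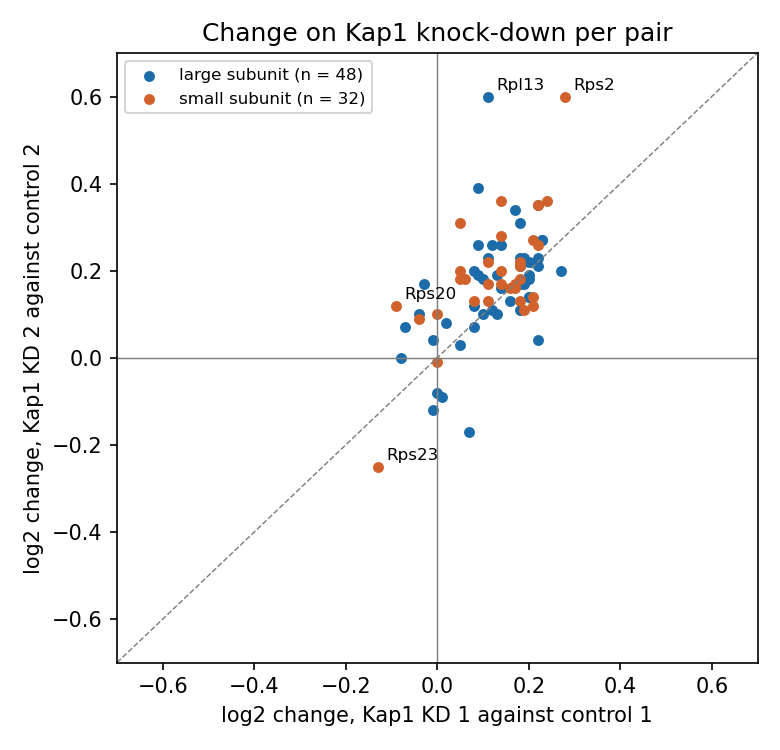
Log2 change of each of the 80 members on Kap1 KD, in pair 1 (horizontal axis) and in pair 2 (vertical axis), coloured by subunit, with a dashed line of equality. Most points lie above 0 on both axes, 66 of 80, and the colours are mixed.

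Rps2, a protein of the mRNA entry region of the small subunit, had the most positive fitted change. It was measured at 2713 and 3453 CPM in control replicates 1 and 2 and at 3285 and 5227 CPM in Kap1 KD replicates 1 and 2, a log2 change of 0.47 (SE 0.29, edgeR adjusted p = 1). Control replicate 2 exceeded Kap1 KD replicate 1, so the groups overlapped, and without Kap1 KD replicate 2 the estimate was 0.10. Its change was 0.28 in pair 1 and 0.60 in pair 2. With replicate number as a block it was 0.44 in edgeR (adjusted p = 1.19e-11) and 0.45 in DESeq2 (adjusted p = 0.337). Rps2 also shared windows with 26 other annotated genes. Rpl13, of the large subunit, stood at 866 and 728 CPM in control and at 937 and 1103 CPM in Kap1 KD, a log2 change of 0.36 (SE 0.19, edgeR adjusted p = 1). Its groups did not overlap, and its change was 0.11 in pair 1 and 0.60 in pair 2, and 0.24 in the fit without Kap1 KD replicate 2. With the block Rpl13 had 0.36 in edgeR (adjusted p = 6.09e-08) and 0.37 in DESeq2 (adjusted p = 0.417). Of its 100-base windows, 83.3% occurred in other annotated genes. Rps14 and Rpl18 followed with log2 changes of 0.31 and 0.30, which became -0.05 and 0.02 without Kap1 KD replicate 2. They had 0.24 and 0.22 in pair 1 and 0.36 and 0.35 in pair 2. The block gave them 0.30 and 0.29 in edgeR (adjusted p = 1.17e-05 and 2.8e-05). DESeq2 with the block gave 0.31 and 0.30 (adjusted p = 0.00238 and 0.00478). All these block estimates were below 1.5-fold.

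At the other end was Rps23, which lies at the decoding centre. It was measured at 834 and 737 CPM in control replicates 1 and 2 and at 760 and 619 CPM in Kap1 KD replicates 1 and 2, a log2 change of -0.19 (SE 0.19, edgeR adjusted p = 1). The ranges overlapped, with Kap1 KD replicate 1 above control replicate 2, and without Kap1 KD replicate 2 the estimate was -0.04. Its change was -0.13 in pair 1 and -0.25 in pair 2. With the block it was -0.19 in edgeR (adjusted p = 0.00777) and -0.18 in DESeq2 (adjusted p = 0.147). Rpl22, Rpl7l1, Rpl22l1 and Rpl36a came next with estimates of -0.06, -0.05, -0.05 and -0.03. Without Kap1 KD replicate 2 these were -0.01, 0.00, 0.18 and 0.12. Without control replicate 1 Rpl22l1 and Rpl36a had 0.26 and 0.08, and without control replicate 2 Rpl7l1 had 0.04. Rpl22 stayed below 0 with any sample left out. Such fits leave the replicate numbers unequal between the groups, which can itself shift an estimate. Within pairs 1 and 2 Rpl22l1 had -0.08 and 0.00, and Rpl36a had 0.00 and -0.08. Among these members are Rpl22 and its paralog Rpl22l1, which are known to regulate each other.

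Members with known roles outside or beside the core of the ribosome had small estimates. The stalk proteins Rplp0, Rplp1 and Rplp2 had log2 changes of 0.27, 0.26 and 0.21, which became -0.03, 0.01 and 0.03 without Kap1 KD replicate 2. Within pairs 1 and 2 Rplp0 had 0.17 and 0.34, Rplp1 0.18 and 0.31, and Rplp2 0.20 and 0.22. With replicate number as a block, edgeR gave 0.25, 0.25 and 0.21 (adjusted p = 0.000282, 0.000359 and 0.00346), all below 1.5-fold. Rpl5 and Rpl11, which bind MDM2 with 5S ribosomal RNA when assembly is disturbed, had 0.08 and 0.20, or 0.16 and 0.06 without Kap1 KD replicate 2. Rps6, the substrate of S6 kinase, had 0.16, and Rps27a, made as a fusion to ubiquitin, had 0.03. None of these passed the test in the fit with genotype alone. Rpsa, also described as a laminin receptor, had 0.17, Rps19, mutated in Diamond-Blackfan anaemia, had 0.19, and Rpl13a, which can leave the ribosome to silence mRNAs, had 0.21. Without Kap1 KD replicate 2 the estimates of Rpsa and Rpl13a turned to -0.04 and -0.03, while they had 0.14 and 0.18 in pair 1 and 0.20 and 0.23 in pair 2. The X-linked members Rpl10, Rpl36a, Rpl39 and Rps4x had 0.17, -0.03, 0.24 and 0.12, and without that library 0.17, 0.12, 0.18 and 0.13.

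Paralog pairs were unequal in abundance. Rpl7 was measured at 1733, 1295, 1744 and 1217 CPM in control 1, control 2, Kap1 KD 1 and Kap1 KD 2, and Rpl7l1 at 182, 202, 191 and 180. Rpl36a stood at 434, 373, 435 and 353 CPM and Rpl36al at 176, 131, 188 and 149. Rps27 stood at 426, 506, 484 and 553 CPM and Rps27l, a p53 target, at 151, 145, 171 and 164. In each of these pairs the first named gene was the more abundant in every sample. Rpl3l, known from striated muscle, had 1, 4, 1 and 1 counts and Rpl39l, known from testis, 1, 0, 0 and 1, so both were near 0 in this hepatoma line.

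Between replicates the members spread more widely than on Kap1 KD, and in both directions. The SD of the fitted log2 change across the 80 members was 0.27, against 0.10 on Kap1 KD, while the medians were 0.15 and 0.16. With genotype in the model, replicate 2 against replicate 1 gave 1284 higher and 2464 lower genes at 1.5-fold and adjusted p under 0.05, or 9.08 and 17.4% of the 14142 tested. Among the 80 members 1 was higher and 1 lower. Without the fold threshold 44 members were higher and 13 lower, against 31.5 and 32.1% of all genes. These counts depend on scaling and model, with 25 members higher and 19 lower on unscaled total counts, against 3502 and 5261 genes, 11 and 6 with no genotype term, against 2253 and 2791 genes, and 37 and 9 with DESeq2, against 3329 and 3115 genes. This fit left 1 residual degree of freedom, so its p-values rest on a spread shared across genes.

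Rps14, of the small subunit, was the member called higher. It was measured at 1567 and 2289 CPM in the control samples numbered 1 and 2, and at 1849 and 2931 CPM in the Kap1 KD samples numbered 1 and 2, a log2 change of 0.61 (SE 0.06, edgeR adjusted p = 2.61e-23). Both samples numbered 2 lay above both numbered 1. On unscaled total counts its change was 0.51, and without Kap1 KD replicates 1 or 2 it was 0.55 or 0.57, all under the fold threshold, where fits of 3 samples gave a value with no test. Rpl23, which also binds MDM2, was the member called lower. It was measured at 1003 and 603 CPM in control replicates 1 and 2 and at 974 and 645 CPM in Kap1 KD replicates 1 and 2, a log2 change of -0.66 (SE 0.06, edgeR adjusted p = 3.45e-28). Both samples numbered 2 lay below both numbered 1, and Rpl23 had no window in common with another annotated gene.

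Estimates next in size were Rpl36 at 0.54, Rps2 at 0.51 and Rps15 at 0.49 on the higher side. On the lower side were Rpl22l1 at -0.52, Rps24 at -0.52, Rpl7 at -0.47 and Rps3a at -0.40. All of these had an adjusted p under 0.05 in the edgeR test and none reached 1.5-fold. Rps2 was not under 0.05 with DESeq2 (adjusted p = 0.0918) or in edgeR with no genotype term (adjusted p = 0.0861). On unscaled total counts Rpl22l1 and Rps24 passed, with -0.62 and -0.61, and the members called were 0 higher and 3 lower, against 847 and 2957 of all 14142 genes.

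Starts of 8 of these members, without Rps14, are shown because the pyrimidine start is the sequence feature the family is known for. Each line gives 30 bases of mm9 from 10 before the annotated start, on the strand of the gene, with capitals for a C at the start followed by at least 4 bases that are each C or T.
Rpl36 (chr17:56752808-56752837, plus strand): catatatcccaggattctgcgcggtgccgt
Rps2 (chr17:24857045-24857074, plus strand): gcgcctccctCTTCTTCTTCTTCgggagaa
Rps15 (chr10:79755188-79755217, plus strand): agcgcagcccgtacttccttttccgagtaa
Rpl23 (chr11:97643732-97643761, minus strand): ccggtcacgtggctgagtgggcggggcctc
Rpl22l1 (chr3:28704348-28704377, plus strand): ccggttccgagttgcgtatttcgcacgctc
Rps24 (chr14:25309930-25309959, plus strand): gtgagcggtcCTCTTTTCCTCCTCTCCagc
Rpl7 (chr1:16094724-16094753, minus strand): agaaattaagcccagagctgacgaggtgtc
Rps3a (chr3:85946605-85946634, minus strand): acgagccgccagctagtgtcgcgagattct

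Rps2, among the members with a positive replicate change, and Rps24, among those with a negative one, carried the run at the annotated start. Over the family it stood exactly there in 6 of 83 members, 7.23%, against 2.01% of 22274 other genes, on the mRNA strand only. Allowing 10 bases to either side gave 41% of members and 30.3% of other genes. In the RefSeq promoter table, which holds 61 of the member symbols, the run was at the start in 17.8% of 73 member promoters and 2.47% of 32778 others, and within 10 bases of it in 54.8 and 30.7%. These shares cover different sets of genes and starts, and a missing run says only that these letters are not at that position.

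Taken over the family, the median replicate change was close to that of other abundant genes. The median log2 change was 0.15 over the 80 members and 0.16 over the 2132 genes outside the family with at least 100 CPM, and the SD across genes was 0.27 and 0.40. On unscaled total counts the median of the members was 0.06, where that of all tested genes went from 0.00 to -0.09. Within control the median member changed by 0.14 and within Kap1 KD by 0.18. Large and small subunit genes had fitted medians of 0.15 and 0.15, and large minus small was 0.01. Of the 80 members, 52 were above 0 in both genotypes, 20 were below 0 in both and 8 differed in sign. Both samples numbered 2 lay above both numbered 1 for 40 members, 50%, against 35.5% of all genes tested, and below them for 16 members, 20%, against 37.2%.

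**Figure D3:**
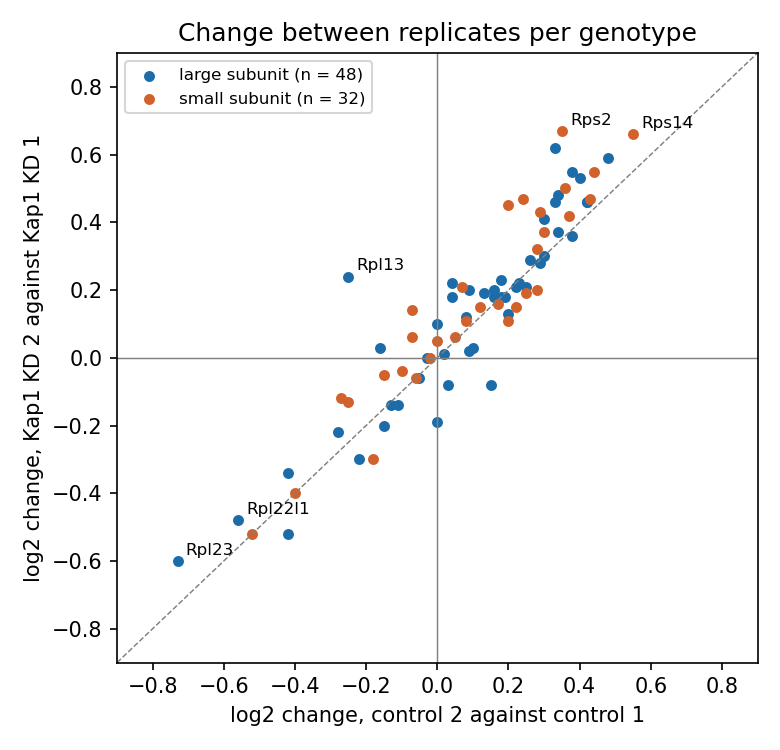
Log2 change of each of the 80 members from replicate 1 to replicate 2, within control (horizontal axis) and within Kap1 KD (vertical axis), coloured by subunit, with a dashed line of equality. Rpl23 is at the lower left and Rps14 at the upper right, and 72 points have the same sign on both axes.

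Members low in G and C tended to be lower in replicate 2. Across the 80 members the fitted replicate change and the GC content of the transcript had a Pearson r of 0.62 and a Spearman rho of 0.65, a description across genes that share the same 4 libraries. Across 14118 tested genes the values were 0.57 and 0.66, so the family followed the table as a whole. Transcript length showed little relation among the members, with r of 0.08 on a log10 scale. The change on Kap1 KD was also related to GC content, with r of 0.55 across members and 0.25 across all genes. Whether base composition of the libraries has a part in either change was not tested.

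**Figure D4:**
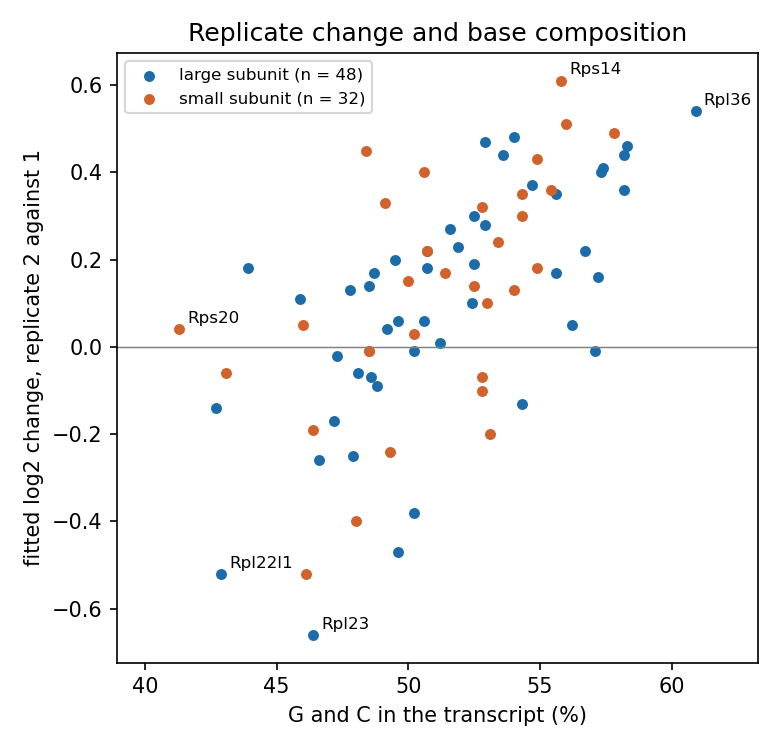
Fitted log2 change from replicate 1 to replicate 2 (vertical axis) against the GC content of the transcript in percent (horizontal axis) for the 80 members, coloured by subunit. Rpl22l1 and Rpl23 lie low with little G and C, and Rpl36 and Rps14 lie high. Rps20 has the lowest GC content, taken over an annotated transcript of 3706 bases, with a change of 0.04.

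Ribosomal genes that the symbol rule does not take were measured beside the members. Fau, whose product holds the small subunit protein eS30, stood at 766, 1014, 881 and 1162 CPM in control 1, control 2, Kap1 KD 1 and Kap1 KD 2. Gnb2l1, which encodes the scaffold RACK1 of the small subunit, stood at 2790, 3734, 3238 and 4768 CPM. Both were lowest in control replicate 1 and highest in Kap1 KD replicate 2. On Kap1 KD their log2 changes were 0.20 and 0.30, or -0.01 and 0.00 without Kap1 KD replicate 2. Within pairs 1 and 2 Fau had 0.20 and 0.20, and Gnb2l1 0.21 and 0.35. Neither passed the edgeR test in the fit with genotype alone.

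Other genes of the translation machinery gave 0 calls on Kap1 KD in each list, where the same edgeR fit called 0% of all genes tested. Of 22 translation factors and other mRNAs with a pyrimidine start, the median log2 change was 0.13. Medians were 0.07 for 31 ribosome assembly factors, 0.09 for 11 RNA polymerase I genes, 0.09 for 79 mitochondrial ribosome genes and 0.16 for 91 tested processed copies with -ps symbols. The copies thus had the same median as the members. Between replicates 9.08% of all genes tested were called higher and 17.4% lower. In the list of translation factors and other mRNAs Eef2 was called higher and Eif2s2 and Npm1 lower. Calls were 3 higher and 4 lower among assembly factors, 0 and 1 for RNA polymerase I, 4 and 2 for the mitochondrial ribosome, and 6 and 0 for the copies.

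Hepatoma markers were detected unevenly. Alb stood at 1580, 1037, 975 and 441 CPM and Afp at 697, 750, 604 and 445 CPM in control 1, control 2, Kap1 KD 1 and Kap1 KD 2, while Ttr and Serpina1a did not pass the filter. The 10 hepatoma markers summed to 4903, 5665, 4444 and 5027 CPM, led by Krt18. Their median log2 change on Kap1 KD was -0.46 over 8 tested, with 0.14 and 0.13 for the abundant keratins Krt8 and Krt18 and negative estimates for the others, namely Alb at -0.89, Afp at -0.46, Apoa1 at -1.35, Trf at -0.57, Hnf4a at -0.42 and Fgb at -0.46. The liver markers thus had estimates of the opposite sign to most ribosomal protein genes, and their part in those changes was not tested. Leukocyte markers summed to 21.6, 36.1, 20.4 and 32.9 CPM, led by Cd14, with Ptprc at 4, 6, 5 and 8 counts. Endothelial markers summed to 0.162, 0.282, 0.258 and 0.214 CPM. Fibroblast or stellate markers summed to 1705, 1304, 1695 and 1231 CPM, nearly all from Dcn, with Pdgfrb and Acta2 at or near 0. Of these lists 0 genes were called on Kap1 KD by edgeR, which called 0% of all genes tested. Between replicates 1 hepatoma marker was higher and 1 lower of 8 tested, 1 and 2 of 4 for fibroblast or stellate, 3 and 0 of 3 for leukocyte, and 0 of 1 for endothelial markers. Of all genes tested, 9.08% were called higher and 17.4% lower between replicates. Leukocyte sums were high in both samples numbered 2, and their part in the replicate change was not tested. With bulk RNA, fewer cells of a type and less RNA per cell cannot be told apart.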

How the data were processed

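Poly(A) libraries of 2 control and 2 Kap1 KD samples of Hepa 1-6 were analysed from the raw counts per Ensembl gene that the authors deposited. According to the submitters' processing notes and the methods, 100-base reads were aligned to mm9 with TopHat2 2.0.11, with 1 location kept per read, and counted with HTSeq 0.6.1. The strand setting is not given in the sources used here. Small RNA tables of the series list no ribosomal protein gene and were not used.

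Symbols came from GENCODE vM1 (mm9), which matched 21806 of 21915 genes. Members and lists were chosen with earlier results of these data known. Counts were filtered with filterByExpr, scaled by TMM and tested with the edgeR 4.0.16 quasi-likelihood F test in R 4.3.3, with Benjamini-Hochberg adjustment over 14142 genes. Genes were called at 1.5-fold and adjusted p under 0.05. Kap1 KD was fitted with genotype alone, and replicate 2 against 1 with genotype and replicate number. Standard errors were derived from the log2 change and its F statistic (the absolute change over root F). The fits were tested on simulated data with 200 changed genes. Changes per pair used log2 of CPM plus 0.1. Alternatives were DESeq2 1.42.0, other scaling, no filter, no fold threshold, a replicate block, no genotype term and each sample left out. Python 3.11.15, pandas 2.3.3 and SciPy 1.17.1 gave the summaries.

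Length and GC content came from the shortest transcript among those with the longest coding sequence. This definition was chosen after seeing that unions of exons were very long for several members, and the union was kept as an alternative. Starts were read from the mm9 genome at GENCODE vM1 coordinates, and shares also from RefSeq promoters (GRCm38.p6). In all, 22 definitions of a start or promoter motif were counted after the data were seen, namely the pyrimidine start at and near the start in both sources and 9 short strings on the mRNA strand and on both strands. Only the 4 pyrimidine start shares are given, because that motif is the textbook definition, and none was tested.

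Named genes were Trim28, the 4 members with the highest and the 4 with the lowest level per kb, the 5 most positive and the 5 most negative log2 changes in each fit, and members listed by role, paralogy or X linkage, with Fau and Gnb2l1. Some genes that this rule names are not reported here.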

Additional observations from a re-analysis of the deposited data

Results flagged for a closer look

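Among the named members that passed the filter on low counts, 5 moved in opposite directions between replicates 1 and 2 in the 2 genotypes, each from a single pair of samples per genotype, and the difference was not tested. Rpl13 had a log2 change of -0.25 in control and 0.24 in Kap1 KD. Rps20 had -0.07 and 0.14, Rps27a -0.07 and 0.06, Rpl7l1 0.15 and -0.08, and Rpl22 0.03 and -0.08.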

How the results depend on the processing

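Calls in the Kap1 KD comparison depended on the model. Genes called were 0 in the reported fit, 3 with DESeq2, 631 with edgeR and the replicate number as a block, and 227 with DESeq2 and that block, which was added after seeing the data. Members called at 1.5-fold were 0 in each of these. With the block and no fold threshold, a combination added after seeing the data, edgeR called 49 members, 48 higher and 1 lower, among 3052 genes (1426 higher, 1626 lower of 14142), and DESeq2 called 14 members, all higher, among 856 genes (412 higher, 444 lower). Unadjusted p was under 0.05 for 59 (edgeR) and 49 (DESeq2) of 80 members with the block, against 4627 and 2306 of 14142 genes, and for 0 members without it in both tools. Leaving out a sample gave 3 to 53 genes and 0 members, assuming that the lone sample varies like the other group. The pairing rests partly on an inferred number; deviations of same-numbered samples correlated with r of 0.80 across genes, which is a hint from the data and not from the design.

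The median log2 change of members on Kap1 KD was 0.12 on total counts and 0.08 to 0.25 with a sample left out, positive in each case. Single members were less stable in those fits. Of 37 named members tested, 12 changed sign without Kap1 KD replicate 2, and 3 to 6 without each other sample. Those fits had genotype alone, and a sample left out makes the replicate numbers unequal between the groups. Within same-numbered pairs 66 of the 80 members were above 0 in both, 4 were below 0 in both and 10 differed in sign. Large minus small ran from -0.02 to 0.02 with a sample left out. Between replicates, genes called were 8990 and members called 57 without the fold threshold. The median of members was 0.06 on total counts and 0.14 to 0.18 with a sample left out, and large minus small 0.00 to 0.04. The median level was 958 CPM per kb with unions of exons as length, chosen after seeing the data. The causes of these shifts were not tested.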
